A study of Mus musculus with 16 samples.

Results

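AMP-activated protein kinase (AMPK) is a heterotrimer of a catalytic alpha, a scaffolding beta and a nucleotide-binding gamma subunit, and the described genes are its 7 subunit genes together with the gene of its upstream kinase LKB1. They are Prkaa1 and Prkaa2 (alpha), Prkab1 and Prkab2 (beta), Prkag1, Prkag2 and Prkag3 (gamma) and Stk11 (LKB1). All array probes carrying 1 of these names or a synonym were taken, which gave 11 probes of 8 genes among 41174 probes of 27670 gene names. Of these, 8 probes of 7 genes passed the detection filter: a heart signal well above background on 4 or more of the 16 arrays, with a value on at least 15. The filter keeps a probe that is high in 1 group alone, so the 8 probes are not all members.

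Ventricles of 129Sv mice were measured on 16 two-colour arrays 1 week after surgery, with 4 biological replicates per group by the labels. The groups were CHIP-/- mice after trans-aortic banding (TAB), CHIP-/- mice after sham surgery, wild-type mice after TAB and wild-type mice after sham surgery. TAB narrows the aorta and so loads the left ventricle with pressure. CHIP, the product of Stub1, is a ubiquitin ligase that works with molecular chaperones. The labels give no allele design, cell type restriction, age or sex for the CHIP-/- mice, which were compared with wild-type mice of the same labelled strain. Values are log2 ratios of heart RNA to a common reference, RNA of whole neonatal mice of mixed 129Sv and C57BL/6 background, so the ratios of different genes do not order their levels.

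AMPK senses a falling ratio of ATP to AMP and ADP through its gamma subunit. It is activated when LKB1, or a calcium-dependent kinase, phosphorylates the alpha subunit, and it then slows lipid and protein synthesis and favours fuel use and autophagy. In heart muscle the alpha 2 subunit is the more abundant catalytic form, and mutations in the human gene of gamma 2 cause a cardiomyopathy with glycogen storage. The arrays measure transcripts, not the phosphorylation on which the kinase's activity depends.

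Between 27.0% and 37.7% of spots gave a heart signal well above background, and the number of arrays limits the precision. Stub1 was lower on all CHIP-/- arrays than on all wild-type arrays, with log2 differences of -1.33 after TAB and -1.70 after sham surgery. From 8 to 9 of 9 ventricular cardiomyocyte markers were well above background on every array. Each of the 4 slides carried the arrays of 1 group alone, so the effects of slide and group cannot be told apart here. The Y-linked transcripts of Ddx3y and Eif2s3y were detected above background on 3 sham arrays (CHIP-/- replicates 2 and 4, wild-type replicate 4) and on no TAB array, and the atrial gene Myl7 was high on 3 sham arrays (CHIP-/- replicate 1, wild-type replicates 1 and 3). The member differences were recomputed without each of these sets of arrays, except that the Prkag2 probe was not kept without either set and the second Prkag1 probe was not kept without the high-Myl7 arrays.

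The results turn on Prkab2, whose response to TAB differed between the genotypes, and on Prkaa2, Prkab1 and Prkag1, which fell after TAB in both. The 250 bases upstream of the annotated starts of these genes are shown 5′ to 3′ from RefSeq promoter records of assembly GRCm38.p6, with capitals marking matches to GGGCGG (the GC box) or CCAAT on either strand. RefSeq promoter records were found for all 8 members.
Prkab2, chr3:97657962-97658211, plus strand: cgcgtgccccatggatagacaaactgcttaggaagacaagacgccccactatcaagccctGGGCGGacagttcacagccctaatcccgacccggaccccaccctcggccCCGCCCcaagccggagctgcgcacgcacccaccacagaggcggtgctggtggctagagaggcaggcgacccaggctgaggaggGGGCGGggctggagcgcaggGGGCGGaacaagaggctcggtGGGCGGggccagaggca
Prkaa2, chr4:105109899-105110148, minus strand: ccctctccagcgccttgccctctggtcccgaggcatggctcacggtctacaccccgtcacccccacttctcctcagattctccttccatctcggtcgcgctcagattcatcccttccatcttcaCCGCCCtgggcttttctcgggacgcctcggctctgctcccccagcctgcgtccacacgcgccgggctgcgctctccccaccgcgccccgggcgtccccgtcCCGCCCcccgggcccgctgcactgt
Prkab1, chr5:116024429-116024678, minus strand: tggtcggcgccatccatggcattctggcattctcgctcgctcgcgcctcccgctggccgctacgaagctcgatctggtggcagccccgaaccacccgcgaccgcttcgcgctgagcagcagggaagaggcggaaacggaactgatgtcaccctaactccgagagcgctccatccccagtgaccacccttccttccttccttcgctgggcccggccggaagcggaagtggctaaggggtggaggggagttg
Prkag1, chr15:98831509-98831758, minus strand: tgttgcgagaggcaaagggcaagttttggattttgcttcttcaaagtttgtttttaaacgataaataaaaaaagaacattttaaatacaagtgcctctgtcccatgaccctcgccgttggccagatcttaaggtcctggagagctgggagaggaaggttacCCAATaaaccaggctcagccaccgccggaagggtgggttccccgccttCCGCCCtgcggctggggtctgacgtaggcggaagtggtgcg

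Prkab2 held 5 GC boxes in this window, at 190, 141, 58, 38 and 17 bases before the start, against 2 in Prkaa2, 1 in Prkag1 and 0 in Prkab1. The window of Prkaa1, which did not pass after TAB in either genotype, also held 5. At least 1 match was present in 32.7% of the 32851 mouse promoter windows of the same length, and at least 4 in 4.09%. The CCAAT match of Prkag1, which overlaps none of the other motifs, lies 89 bases before its start, and 33.8% of windows hold one. GC content was 69.2% for Prkab2, 70% for Prkaa2, 65.6% for Prkab1 and 51.6% for Prkag1, beside a median of 52.4% over all windows. None of the 4 windows held AAGGTCA (the estrogen-related receptor half-site, in 4.08% of windows), CACGTG (the E-box, 6.02%), TGACGTCA (the CRE, 1.55%), CATTCC (the M-CAT core, 12.6%) or TATAAA (the TATA box, 12.4%). These are matches of letters, and the arrays do not show whether a factor binds there.

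Across the 8 member probes, TAB moved 6 in CHIP-/- hearts (1 up, 5 down) and 4 in wild-type hearts (all down). Here and below a probe rose or fell where limma's adjusted p (Benjamini-Hochberg over 14684 probes) was below 0.05, and differences are in log2 with their standard error (SE). Of all probes, 44.0% passed in CHIP-/- hearts (21.3% up, 22.7% down) and 33.4% in wild-type hearts (16.3% up, 17.1% down). The median difference of the member probes was -0.31 in CHIP-/- and -0.25 in wild-type hearts, beside -0.02 and -0.01 over all probes. Array values did not overlap between TAB and sham for 5 member probes in each genotype, against 39.7% of all probes in CHIP-/- and 30.0% in wild-type hearts. These directions depend on the scaling for probes that moved little. With each array centred on its median in place of loess, the median of all probes shifted to -0.21 in CHIP-/- and -0.18 in wild-type hearts, and the share of calls that were up moved to 11.4% in CHIP-/- hearts (48.4% with loess) and to 7.88% in wild-type hearts (48.8% with loess).

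**Figure D1:**
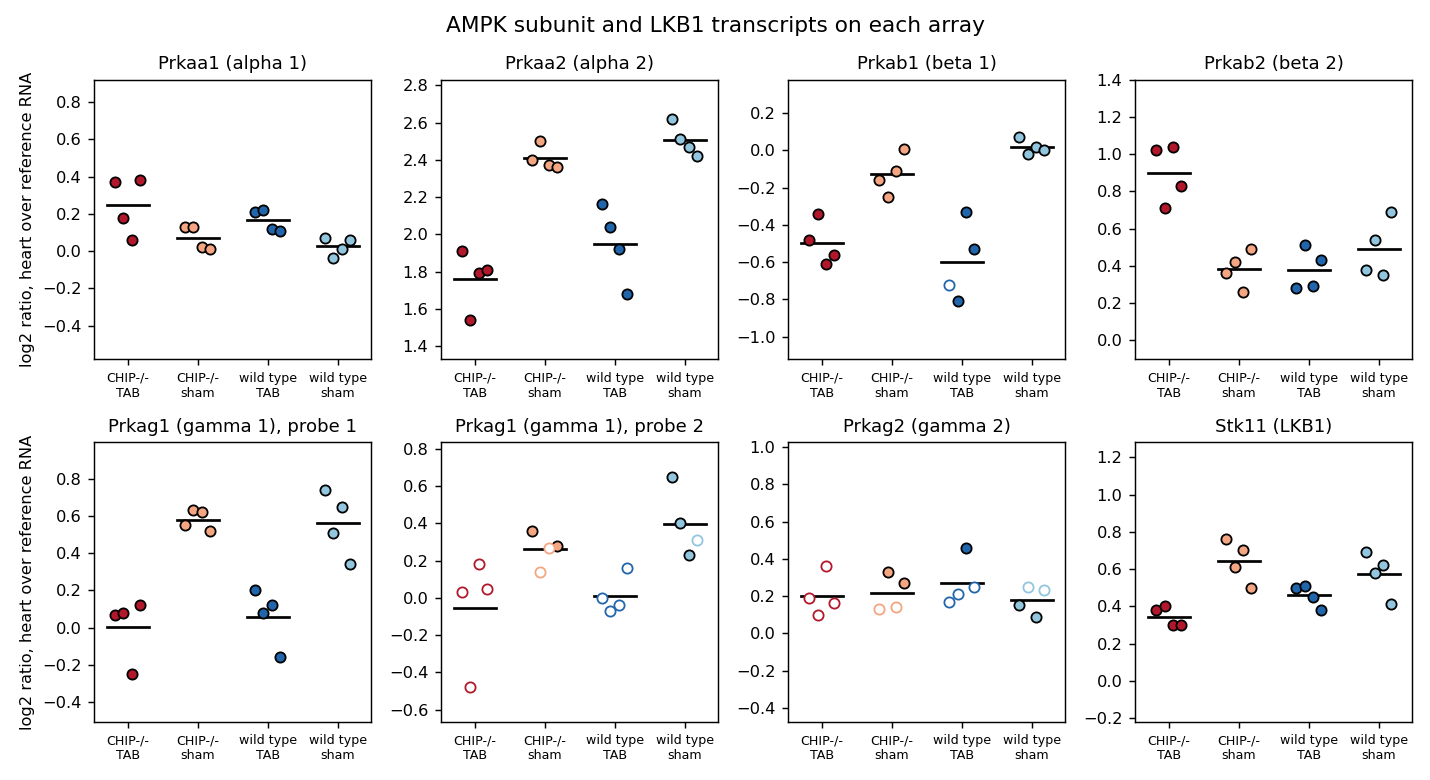
Log2 ratio of heart over reference RNA on each array for the 8 member probes kept, by group (CHIP-/- TAB, CHIP-/- sham, wild-type TAB, wild-type sham, 4 arrays each). Points are arrays, open points were not well above background in the heart channel, bars are group means, and every panel spans the same height. Prkab2 is higher on all 4 CHIP-/- TAB arrays (0.71 to 1.04) than on any other array (0.26 to 0.69), while Prkaa2 is lower on all 8 TAB arrays than on all 8 sham arrays.

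Prkab2, which encodes the beta 2 scaffold that carries glycogen-binding and complex-forming regions and prevails in striated muscle, was the member whose response to TAB differed between genotypes. Its ratios were 1.02, 0.71, 1.04 and 0.83 on the CHIP-/- TAB arrays and 0.36, 0.42, 0.26 and 0.49 on the CHIP-/- sham arrays. In wild type they were 0.28, 0.51, 0.29 and 0.43 after TAB and 0.38, 0.54, 0.35 and 0.69 after sham surgery. The CHIP-/- TAB arrays lie above all 12 others, and the remaining 3 groups overlap each other. The means were 0.90 ± 0.16 in CHIP-/- TAB hearts and 0.38 ± 0.10 in CHIP-/- sham hearts (SD, n = 4 each), a rise of 0.52 (SE 0.09, limma adjusted p = 4.9e-05, 1.43-fold). In wild type they were 0.38 ± 0.11 after TAB and 0.49 ± 0.16 after sham surgery (SD, n = 4 each), a difference of -0.11 (limma adjusted p = 0.36, 95% interval -0.30 to 0.07).

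The 2 TAB responses of Prkab2 differed by 0.63 (SE 0.13, limma adjusted p = 0.0059), with 4.37% of all probes passing this test (2.32% up, 2.05% down). After TAB it was 0.53 higher in CHIP-/- than in wild-type hearts (SE 0.09, limma adjusted p = 0.00044, 1.44-fold), where 9.91% of all probes passed (4.43% up, 5.48% down) and 11.9% had groups that do not overlap. After sham surgery the genotypes differed by -0.11 (adjusted p = 0.86). Both the difference after TAB and the difference of responses stood at the 99th percentile of all probes. The difference after TAB passed under all 30 alternatives, between 0.48 and 0.62. The other calls rest on the scaling: with median centring the CHIP-/- response was 0.19 (adjusted p = 0.17), the wild-type response was -0.33 (adjusted p = 0.019) and their difference was 0.53 (adjusted p = 0.11). Relative to the shift of all probes under that scaling, Prkab2 stood at 0.40 in CHIP-/- and -0.15 in wild-type hearts. The share of all calls that were up after TAB in CHIP-/- against wild type also moved, to 55.7% from 44.7% with loess.

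**Figure D2:**
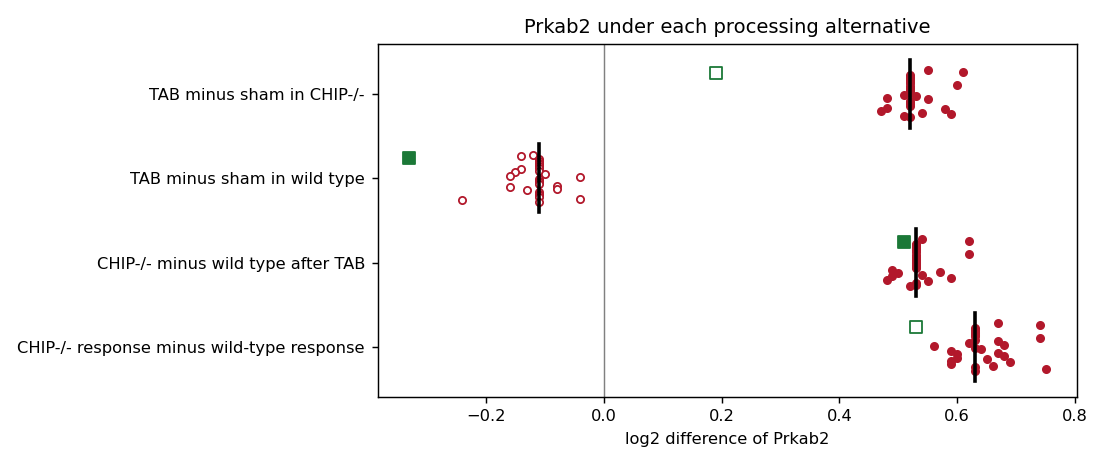
Log2 differences of Prkab2 (x axis) in 4 comparisons under each processing alternative. Black bars are the reported values, circles are alternatives, squares are median centring, and filled symbols passed at an adjusted p below 0.05. The difference between CHIP-/- and wild type after TAB is filled throughout (0.48 to 0.62), while the squares of the CHIP-/- response (0.19) and of the difference of responses (0.53) are open.

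Markers of other cell types also differed between the groups, in patterns that varied by type. The mean log2 ratio of 8 fibroblast markers ran from -0.49 to -0.24 in CHIP-/- TAB hearts, from -1.70 to -1.27 in CHIP-/- sham hearts, from -1.15 to -0.67 in wild-type TAB hearts and from -1.46 to -1.14 in wild-type sham hearts. Of these 8, 4 passed upward in the difference of responses. The mean of 8 macrophage markers ran from 0.45 to 0.65, from -0.30 to -0.15, from 0.21 to 0.34 and from -0.17 to -0.07 in the same order of groups, with 3 of 8 passing upward in the difference of responses. The mean of 6 smooth muscle markers ran from -0.27 to 0.04 in CHIP-/- TAB hearts, from -1.13 to -1.08 in CHIP-/- sham hearts, from -0.35 to -0.20 in wild-type TAB hearts and from -1.07 to -0.93 in wild-type sham hearts. This mean was higher on every TAB array than on every sham array in both genotypes. After TAB 4 of these 6 rose in CHIP-/- and 5 in wild-type hearts. The mean of 8 endothelial markers averaged 0.78 in CHIP-/- TAB, 0.65 in CHIP-/- sham, 0.99 in wild-type TAB and 0.68 in wild-type sham hearts. Among ventricular cardiomyocyte markers 6 of 9 could be tested, and after TAB 5 fell and 1 rose in CHIP-/- hearts while 3 fell in wild-type hearts. The median TAB response of these 6 was -0.42 in CHIP-/- and -0.11 in wild-type hearts. Between genotypes after sham surgery 0 of the 6 passed, with a median difference of -0.04. The untested markers had values on too few arrays once outlier-marked spots were left out. A mean of the 9 therefore need not cover the same genes on every array. It averaged 4.19 in both CHIP-/- TAB and CHIP-/- sham hearts, 4.38 in wild-type TAB and 4.51 in wild-type sham hearts. In this mean every wild-type sham array (4.43 to 4.58) lay above every CHIP-/- sham array (3.98 to 4.42), unlike the tested markers taken singly. The part of these cell types in the changes of Prkab2 and of the other members was not tested. In such bulk tissue, fewer cells of a type and less RNA per cell cannot be told apart.

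Prkab1, which encodes the beta 1 scaffold, fell in both genotypes. Its ratios were -0.48, -0.34, -0.61 and -0.56 on the CHIP-/- TAB arrays and -0.16, -0.25, -0.11 and 0.01 on the CHIP-/- sham arrays. They were -0.72, -0.81, -0.33 and -0.53 on the wild-type TAB arrays, of which replicate 1 was not well above background, and 0.07, -0.02, 0.02 and 0.00 on the wild-type sham arrays. Every TAB array lies below every sham array in both genotypes. It fell by 0.37 in CHIP-/- hearts (SE 0.09, limma adjusted p = 0.0027) and by 0.61 in wild-type hearts (SE 0.09, limma adjusted p = 2.3e-05). The responses differed by 0.24 (95% interval -0.03 to 0.52, adjusted p = 0.38), which did not pass. Its signal was low, from 60.4 to 163 over a local background of 37 to 49, and the alternatives gave falls between -0.77 and -0.33 in CHIP-/- and between -1.16 and -0.54 in wild-type hearts.

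Prkaa2, the gene of the alpha 2 catalytic subunit, fell in both genotypes. Its ratios were 1.91, 1.54, 1.79 and 1.81 on the CHIP-/- TAB arrays and 2.40, 2.50, 2.37 and 2.36 on the CHIP-/- sham arrays. On the wild-type arrays they were 2.16, 2.04, 1.92 and 1.68 after TAB and 2.62, 2.51, 2.47 and 2.42 after sham surgery. No TAB array reaches a sham array, and the genotypes overlap within each surgery. The fall was 1.56-fold in CHIP-/- hearts (-0.64, SE 0.09, limma adjusted p = 4.5e-06) and 1.47-fold in wild-type hearts (-0.56, SE 0.09, limma adjusted p = 5.7e-05), and both calls held under all 30 alternatives. The responses differed by -0.09 (95% interval -0.36 to 0.18, adjusted p = 0.81). After TAB CHIP-/- hearts were 0.19 lower than wild-type hearts, which did not pass (-0.19, adjusted p = 0.23). That difference depends on wild-type TAB replicate 4, the lowest of its group at 1.68, without which it is -0.28 (adjusted p = 0.047).

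Prkaa1 encodes the other catalytic subunit, alpha 1, which prevails in many non-muscle cells. Its ratios were 0.37, 0.18, 0.06 and 0.38 in CHIP-/- TAB hearts, 0.13, 0.13, 0.02 and 0.01 in CHIP-/- sham hearts, 0.21, 0.22, 0.12 and 0.11 in wild-type TAB hearts and 0.07, -0.04, 0.01 and 0.06 in wild-type sham hearts. The TAB and sham arrays overlap in CHIP-/- and do not in wild type. Neither difference passed: it was 0.17 in CHIP-/- hearts (95% interval 0.01 to 0.33, adjusted p = 0.07) and 0.14 in wild-type hearts (95% interval -0.01 to 0.30, adjusted p = 0.15). Without CHIP-/- TAB replicate 3 the CHIP-/- difference is 0.23 (adjusted p = 0.017), and with median centring both signs turn, to -0.08 in CHIP-/- and -0.07 in wild-type hearts. The second Prkaa1 probe gave no heart signal well above background on any of the 16 arrays.

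Among the gamma subunits, which bind the adenine nucleotides, Prkag1 had a probe well above background on all 16 arrays. On this brighter probe the ratios were 0.07, 0.08, -0.25 and 0.12 in CHIP-/- TAB hearts and 0.55, 0.63, 0.62 and 0.52 in CHIP-/- sham hearts. In wild-type hearts they were 0.20, 0.08, 0.12 and -0.16 after TAB and 0.74, 0.51, 0.65 and 0.34 after sham surgery. TAB arrays lie below sham arrays in both genotypes, and CHIP-/- TAB replicate 3 lies apart from the other 3 of its group. Prkag1 fell by 0.57 in CHIP-/- hearts (SE 0.09, limma adjusted p = 2.3e-05) and by 0.50 in wild-type hearts (SE 0.09, limma adjusted p = 0.00021), with a difference of responses of -0.07 (95% interval -0.34 to 0.20, adjusted p = 0.85). Both falls passed under all 30 alternatives.

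The second Prkag1 probe was near background: it was well above background on 0 of 4 CHIP-/- TAB, 2 of 4 CHIP-/- sham, 0 of 4 wild-type TAB and 3 of 4 wild-type sham arrays. It therefore gives only a rough fold. On each TAB array the higher of the probe's own signal and the lowest signal well above background was taken. The sham mean was 1.11-fold the mean of these in CHIP-/- and 1.25-fold in wild-type hearts. In wild type the lowest signal did not raise the TAB mean (6.3 on the log2 scale). The sham means include arrays not well above background, so neither fold is a strict lower bound. The limma fit of the log ratios gave -0.32 in CHIP-/- (adjusted p = 0.043) and -0.38 in wild-type hearts (adjusted p = 0.019). The CHIP-/- call ended without CHIP-/- TAB replicate 2 (-0.17, adjusted p = 0.22) and without CHIP-/- sham replicate 1 (-0.28, adjusted p = 0.10), 3 (-0.31, adjusted p = 0.077) or 4 (-0.31, adjusted p = 0.078). It also ended without the arrays with Y-linked transcripts (-0.37, adjusted p = 0.084). The wild-type call ended without wild-type TAB replicate 2 (-0.36, adjusted p = 0.050) and without wild-type sham replicate 1 (-0.30, adjusted p = 0.086). With no filter on dim probes neither call held (-0.32, adjusted p = 0.11 in CHIP-/- hearts and -0.38, adjusted p = 0.052 in wild-type hearts). Both probes of the gene fell together, and the brighter one carries the result.

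Prkag2 and Prkag3 could hardly be followed. The kept probe of Prkag2, the gamma 2 subunit gene, was well above background on 0 CHIP-/- TAB, 2 CHIP-/- sham, 1 wild-type TAB and 2 wild-type sham arrays, and its 16 ratios ran from 0.09 to 0.46. It passed in none of the comparisons, with a difference after TAB of -0.02 in CHIP-/- (95% interval -0.22 to 0.19, adjusted p = 0.91) and 0.09 in wild-type hearts (95% interval -0.11 to 0.30, adjusted p = 0.50). Its second probe was not well above background in either channel on any array. The probe of Prkag3, whose gamma 3 subunit is known chiefly from skeletal muscle, gave no heart signal well above background on any array, and a reference signal well above it on 10. A difference in these transcripts was not detectable with these probes.

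Stk11, the gene of LKB1, fell in CHIP-/- hearts. Its ratios were 0.38, 0.40, 0.30 and 0.30 in CHIP-/- TAB hearts and 0.76, 0.61, 0.70 and 0.50 in CHIP-/- sham hearts, so that the groups do not overlap. They were 0.50, 0.51, 0.45 and 0.38 in wild-type TAB hearts and 0.69, 0.58, 0.62 and 0.41 in wild-type sham hearts, which overlap. The difference was -0.30 in CHIP-/- (SE 0.07, limma adjusted p = 0.0018, 1.23-fold lower) and -0.12 in wild-type hearts (95% interval -0.27 to 0.03, adjusted p = 0.23). The responses did not differ by the test (-0.18, 95% interval -0.39 to 0.03, adjusted p = 0.40), and with median centring the wild-type difference passed as well (-0.36, adjusted p = 0.012).

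**Figure D3:**
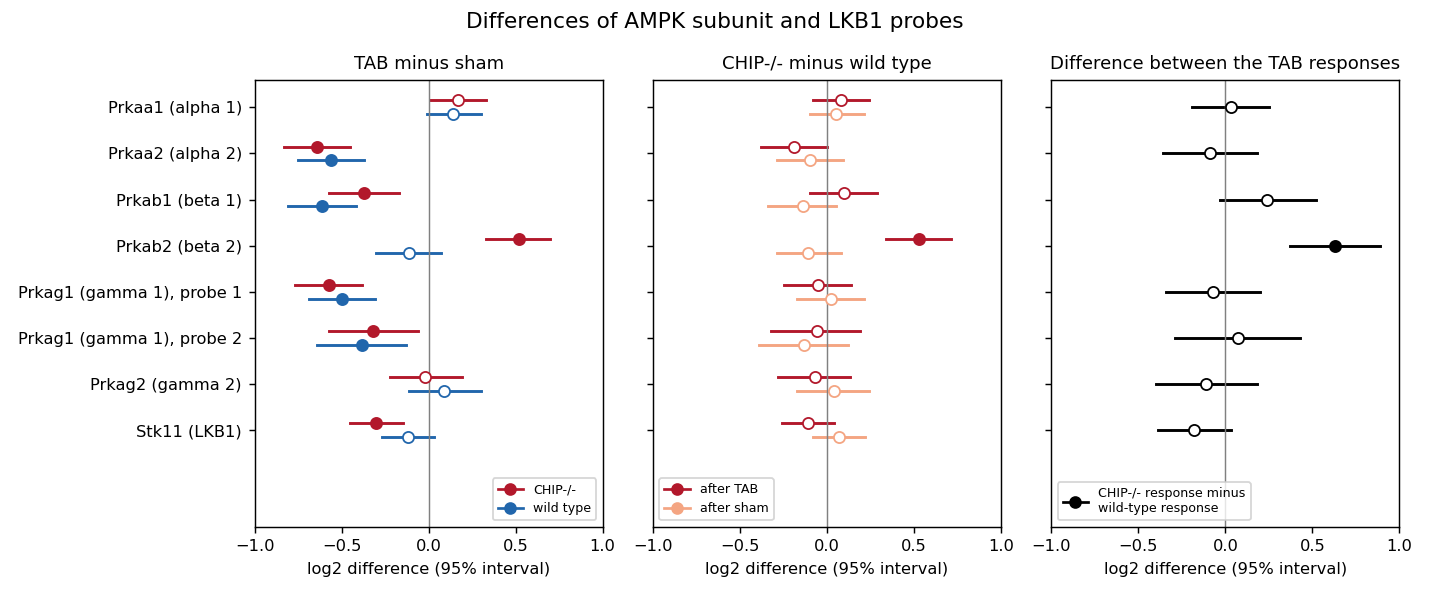
Log2 differences of the 8 member probes (points) with 95% intervals (lines) for TAB minus sham in each genotype, CHIP-/- minus wild type after each surgery, and the CHIP-/- TAB response minus the wild-type one. Filled points passed at an adjusted p below 0.05. Prkab2 is the one filled point in the middle panel (0.53 after TAB) and in the right panel (0.63).

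Between genotypes after sham surgery, none of the 8 member probes passed limma's adjusted threshold and 0 had an unadjusted p below 0.05, while 0.0341% of all probes passed. No member probe had groups that do not overlap, against 5.09% of all probes. The differences ran from -0.14 for Prkab1 to 0.07 for Stk11. The intervals reach -0.39 and 0.24 on the log2 scale at their widest, for the second Prkag1 probe and Prkag2, so differences of that size are not shown to be absent. After TAB Prkab2 was the 1 member probe of 8 that passed, while 9.91% of all probes passed.

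By the correlation over 16 arrays among 9955 other genes, the transcripts most like Prkab2 were Atxn10 (r = 0.932) and Ltbp3 (r = 0.924). Those most like Prkaa2 were Gna12 (r = 0.956) and G6pc3 (r = 0.955), and those most like Prkab1 were Arhgap21 (r = 0.941) and Eif4g1 (r = 0.935). Prkag1 was most like Dctn6 and Mid1ip1 (r = 0.971 each), and Calr3 was among the 2 most like Stk11 (r = 0.926). These points share 4 groups and 4 slides, and with the group means removed the same pairs had r between 0.65 and 0.88. Between members, Prkaa2 and the brighter Prkag1 probe had r = 0.90 (0.50 with group means removed), and Prkab2 and Stk11 had r = -0.72 (-0.61 with group means removed).

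The kinases and regulators around AMPK moved in both directions. Of 17 listed upstream kinases, scaffolds and regulators 16 were measured. After TAB 5 rose and 7 fell in CHIP-/- hearts, and 4 rose and 5 fell in wild-type hearts, with median differences of -0.12 and -0.01. Ppm1e, a phosphatase that can act on AMPK, rose by 0.50 in CHIP-/- (limma adjusted p = 7.4e-05) and by 0.37 in wild-type hearts (adjusted p = 0.0025). The upstream kinase gene Camkk1 rose by 0.36 in CHIP-/- (adjusted p = 0.00074) and by 0.35 in wild-type hearts (adjusted p = 0.0018). Flcn, which encodes folliculin, fell by 0.52 in CHIP-/- (adjusted p = 0.00014) and by 0.60 in wild-type hearts (adjusted p = 5.2e-05), and Stradb, a pseudokinase partner of LKB1, by 0.47 (adjusted p = 5.1e-05) and 0.38 (adjusted p = 0.0011). The second Stradb probe passed in neither genotype. With median centring 0 of 16 rose in either genotype, and 11 fell in CHIP-/- and 8 in wild-type hearts.

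Sesn1, which encodes a stress-induced sestrin, and Cab39, the MO25 scaffold that holds LKB1 in its active complex, differed between the genotypes' responses. Sesn1 fell by 0.79 in CHIP-/- hearts (SE 0.13, limma adjusted p = 2e-05), against -0.14 in wild-type hearts (adjusted p = 0.44). The difference of its responses was -0.65 (adjusted p = 0.038), and it passed on 2 of its 3 probes. The other of these 2 probes fell in both genotypes, by 1.10 in CHIP-/- (adjusted p = 4.9e-08) and by 0.42 in wild-type hearts (adjusted p = 0.0065). Cab39 had a difference of 0.01 in CHIP-/- hearts (adjusted p = 0.87) and rose by 0.32 in wild-type hearts (adjusted p = 0.00029). Its difference of responses of -0.31 (adjusted p = 0.046) passed on 1 of 3 probes. A second Cab39 probe rose in both, by 0.18 in CHIP-/- (adjusted p = 0.026) and by 0.24 in wild-type hearts (adjusted p = 0.0057). For the brightest probe of each gene, the call of the difference of responses failed under 21 of 30 alternatives for Cab39 and 16 of 30 for Sesn1. Among these were 13 and 11 of the 16 fits that leave out 1 array.

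Of 12 AMPK-related kinases that LKB1 activates, 7 were measured. In CHIP-/- hearts 1 rose and 2 fell after TAB, and in wild-type hearts 1 rose and 1 fell, with medians of 0.01 and -0.08. With median centring 0 rose in either genotype, and 4 fell in CHIP-/- and 3 in wild-type hearts. Nuak1 rose by 0.61 in CHIP-/- (limma adjusted p = 3.1e-05) and by 0.55 in wild-type hearts (adjusted p = 0.00019), calls that ended with median centring (0.23 and 0.24). Snrk fell by 0.79 in CHIP-/- (adjusted p = 2.4e-06) and by 0.41 in wild-type hearts (adjusted p = 0.0047), where its second probe did not pass (-0.23, adjusted p = 0.069). After TAB it was 0.38 lower in CHIP-/- than in wild-type hearts (-0.38, adjusted p = 0.027).

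More genes of AMPK substrates fell than rose after TAB. Of 22 listed 18 were measured, and 8 fell and 1 rose in CHIP-/- hearts, while 11 fell and 1 rose in wild-type hearts, with medians of -0.23 and -0.20. Of all probes 22.7% fell and 21.3% rose in CHIP-/- hearts, and 17.1% fell and 16.3% rose in wild-type hearts. With median centring 15 fell in CHIP-/- and 13 in wild-type hearts, and 0 rose. Acacb, the acetyl-CoA carboxylase whose product restrains mitochondrial fatty acid uptake, averaged 0.25 in CHIP-/- TAB and 1.20 in CHIP-/- sham hearts, a fall of 0.95 (SE 0.07, limma adjusted p = 3.5e-10). In wild-type hearts it averaged 0.70 after TAB and 1.20 after sham surgery, a fall of 0.49 (SE 0.07, limma adjusted p = 1.1e-05). Its responses differed by -0.46 (SE 0.10, adjusted p = 0.011), a call that ended with median centring (-0.50, adjusted p = 0.18) and without the arrays with Y-linked transcripts (-0.41, adjusted p = 0.11).

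Ppargc1a, the gene of the mitochondrial coactivator PGC-1alpha, also responded differently in the 2 genotypes. It averaged 0.48 in CHIP-/- TAB and 1.39 in CHIP-/- sham hearts, a fall of 0.91 (SE 0.09, limma adjusted p = 2.8e-08). In wild-type hearts it averaged 1.42 after TAB and 1.45 after sham surgery (-0.04, adjusted p = 0.79), and the responses differed by -0.88 (SE 0.13, adjusted p = 0.00069). Its second probe gave -0.75 in CHIP-/- hearts (adjusted p = 5.2e-05) and 0.38 in wild-type hearts (adjusted p = 0.027), so the 2 probes disagree on the wild-type response and both give a negative difference of responses.

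Other substrate genes fell in both genotypes. Ulk1, an autophagy kinase, fell by 0.62 in CHIP-/- (limma adjusted p = 2.7e-08) and by 0.43 in wild-type hearts (adjusted p = 1.1e-05). Tsc2, a brake on mTOR, fell by 0.57 (adjusted p = 1.5e-07) in CHIP-/- and by 0.51 (adjusted p = 2.1e-06) in wild-type hearts. Pfkfb2, a regulator of cardiac glycolysis, fell by 0.62 (adjusted p = 0.00046) in CHIP-/- and by 0.65 (adjusted p = 0.00047) in wild-type hearts, where its second probe did not pass (-0.23, adjusted p = 0.14). Tbc1d4, which controls glucose transporter traffic, gave -0.20 in CHIP-/- hearts (adjusted p = 0.26) and fell by 0.74 in wild-type hearts (adjusted p = 2e-04), while its second probe fell in both (-0.28, adjusted p = 0.049, and -0.47, adjusted p = 0.0024).

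The enzymes that buffer and interconvert adenine nucleotides, from which AMPK reads energy state, were measured for 14 of 18 genes. In CHIP-/- hearts 6 fell and 3 rose after TAB, and in wild-type hearts 6 fell and 1 rose, with medians of -0.16 and -0.11. With median centring 9 fell and 1 rose in CHIP-/- hearts, and 9 fell and 0 rose in wild-type hearts. Adk, adenosine kinase, fell by 0.75 in CHIP-/- (limma adjusted p = 3.9e-08) and by 0.42 in wild-type hearts (adjusted p = 0.00021). Ak1, the muscle adenylate kinase, fell by 0.64 (adjusted p = 3.4e-07) and 0.45 (adjusted p = 7e-05). Adsl, an enzyme of purine synthesis, fell by 0.55 in CHIP-/- hearts (adjusted p = 1.5e-06), and Ak4 by 0.46 in wild-type hearts (adjusted p = 0.0012).

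Creatine kinase genes did not move together in CHIP-/- hearts. Ckb, the brain-type form, rose by 0.48 in CHIP-/- (limma adjusted p = 1.2e-05) and by 0.22 in wild-type hearts (adjusted p = 0.021). With median centring these were 0.09 and -0.10, and the wild-type call also ended without wild-type TAB replicate 3 or 4 or wild-type sham replicate 3. The second Ckb probe rose by 0.21 in CHIP-/- hearts (adjusted p = 0.039) and did not pass in wild-type hearts (0.08, adjusted p = 0.46). Ckmt1, the ubiquitous mitochondrial form, rose by 0.46 in CHIP-/- hearts (adjusted p = 0.00013), against -0.04 in wild-type hearts (adjusted p = 0.79), and its responses differed by 0.50 (adjusted p = 0.020), which failed under 8 of 30 alternatives, 4 of them leaving out 1 array. With median centring its rise in CHIP-/- hearts was 0.13 and did not pass. Ckmt2, the sarcomeric mitochondrial form, fell by 0.50 in CHIP-/- hearts (limma adjusted p = 0.00035), against -0.07 in wild-type hearts (adjusted p = 0.59). After TAB it averaged 3.73 in CHIP-/- and 4.13 in wild-type hearts (-0.39, adjusted p = 0.0086). Ada, adenosine deaminase, rose by 0.57 in CHIP-/- hearts (adjusted p = 0.00041), and was the 1 gene of this list that still rose with median centring.

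**Figure D4:**
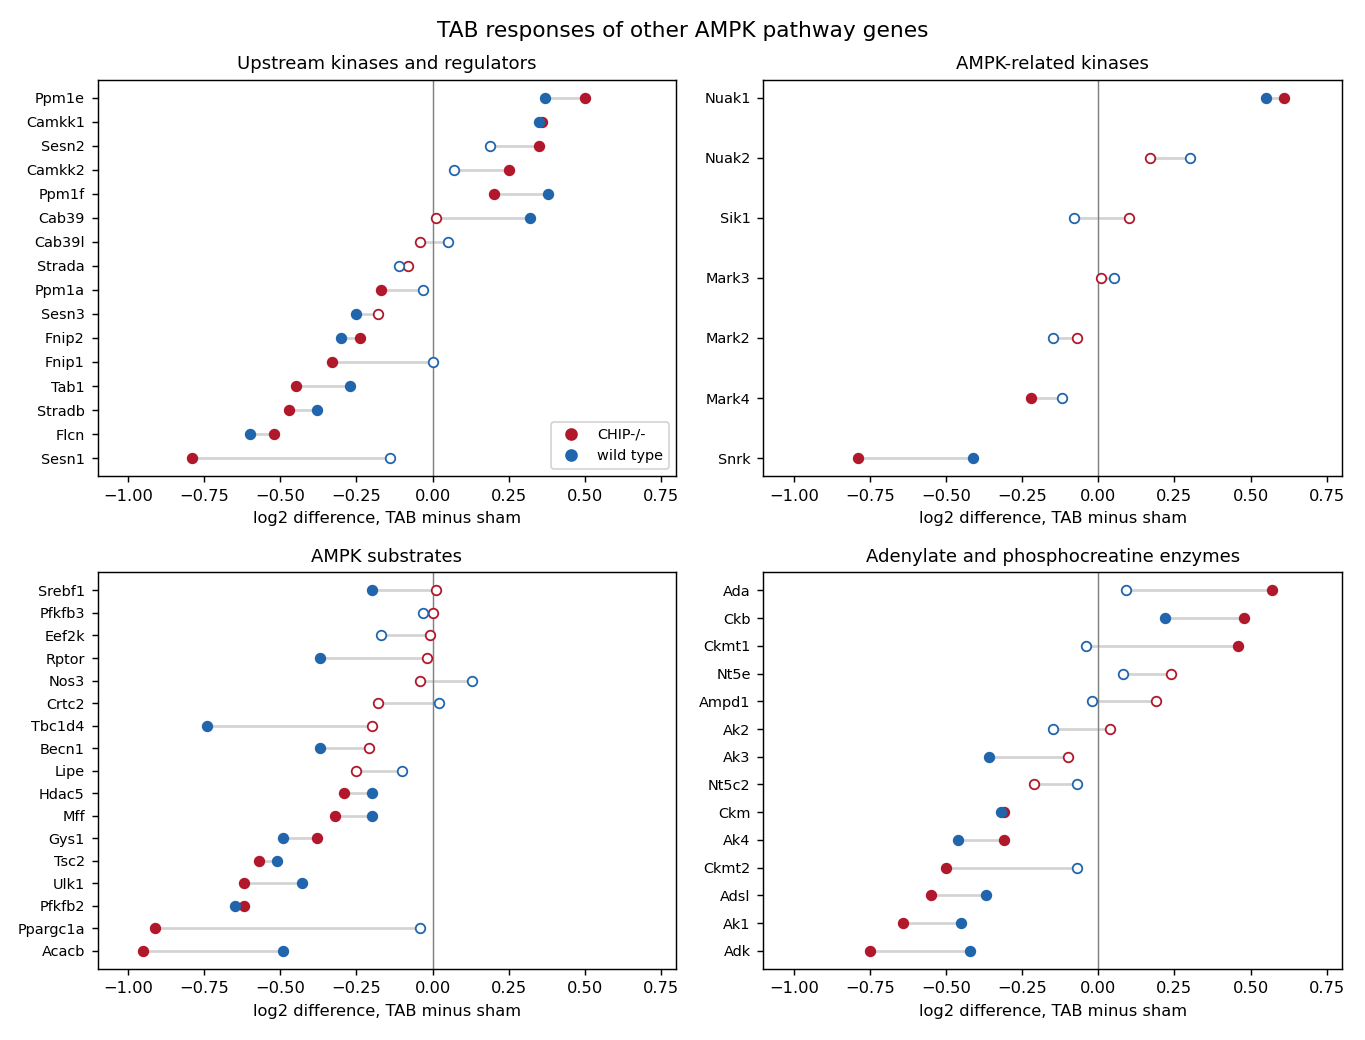
Log2 difference of TAB minus sham (x axis) in CHIP-/- (red) and wild-type (blue) hearts for the measured genes of the 4 lists, by the brightest kept probe (1 substrate gene is not shown). Filled points passed at an adjusted p below 0.05. The filled points shown for the substrate list are negative (8 in CHIP-/- and 11 in wild type), and Ppargc1a and Sesn1 show wide gaps between the genotypes.

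Between genotypes after TAB, 3 regulators, 1 related kinase, 3 substrates and 3 adenylate or phosphocreatine enzymes were lower in CHIP-/- hearts and 1 gene, Ckmt1, was higher by 0.32 (limma adjusted p = 0.021). Apart from those given above, the regulators were Sesn1 (-0.58, adjusted p = 0.0038), Cab39 (-0.34, adjusted p = 0.00072) and Ppm1f, another phosphatase that acts on AMPK (-0.18, adjusted p = 0.041). The other Cab39 probes did not pass (-0.07, adjusted p = 0.6, and -0.18, adjusted p = 0.27). A further Sesn1 probe did not pass either (-0.23, adjusted p = 0.38). The substrates were Ppargc1a (-0.94, adjusted p = 1.8e-06), Acacb (-0.45, adjusted p = 0.00022) and Nos3, the endothelial nitric oxide synthase (-0.28, adjusted p = 0.022). Ak1 and Adk differed by -0.34 each (adjusted p = 0.0053 and 0.0058). With median centring 1 regulator, 0 related kinases, 2 substrates and 0 enzymes were lower in CHIP-/- hearts and 0 genes were higher. Of the calls named, those of Sesn1, Ppargc1a and Acacb passed there, and those of Ak1 (-0.35, adjusted p = 0.22), Adk (-0.35, adjusted p = 0.19), Cab39 (-0.33, adjusted p = 0.16), Ckmt2, Snrk, Nos3, Ckmt1 and Ppm1f did not. On leaving out 1 array, the calls of Nos3, Snrk, Ckmt1 and Ppm1f ended for 3, 5, 4 and 8 of the 16 arrays. After sham surgery 0 of the 55 measured genes of these lists passed limma's adjusted threshold, and 4 had an unadjusted p below 0.05, as did 7.68% of all probes.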

How the data were processed

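Heart RNA (Cy5) and reference RNA (Cy3), 500 ng each, were hybridised together, per the labels' protocols, with 1 dye orientation, so dye bias is shared by all groups. The arrays (pattern 014868) were read with Feature Extraction 9.1.3.1, per the file headers. Mean and background signals were deposited as linear intensity, unnormalized, together with a log10 ratio of background-subtracted, detrended and dye-normalized signals. The deposited series table holds log2 ratios of 14322 probes, centred on each probe's median, with array medians from -0.03 to 0.03. Its columns correlate at 1 with their own arrays to 3 digits. The rule behind its choice of probes is not given in the sources.

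Mean signals were background-corrected with limma's normexp method (offset 50) and loess-normalized within arrays (limma 3.58.1, R 4.3.3). Control spots (weight 0 in loess) and outlier-marked spots (3 to 459 per array) were left out, saturated spots were kept, and spots of a probe were averaged. The 14684 kept probes entered 1 limma fit with a mean per group, with Benjamini-Hochberg adjustment per comparison. Probes were named through a RefSeq table of GRCm38.p6, by accession for 22951 and by symbol or synonym for 6659 and 3109, and 8455 kept the file's name. A list gene is given by its brightest kept probe. The members, the 4 pathway lists and the marker lists were chosen with earlier results of these data known. Named from each list and comparison were up to 3 genes in each direction with the largest change among those that passed, and for each member that passed the 2 other genes with the highest correlation. Second probes of named list genes, and values of those genes in comparisons that did not name them, were added after their values were seen. Tested on data simulated for TAB against sham in CHIP-/- hearts over 14684 probes, the fit recovered 87% of changes of 0.5 and 100% of changes of 1 on the log2 scale, with 11 false calls. The simulation changed 200 probes and drew independent noise for each probe, with no slide effect. In the measured arrays 44.0% of all probes passed in this comparison, so these rates need not hold for the reported calls. Replicate numbers did not pair the arrays across all groups, with same-number correlations from -0.18 to 0.15. Between the sham groups, same-number correlations averaged 0.089, against -0.029 for other numbers, and 3 CHIP-/- arrays matched best with their own number. Probe positions in the genes were not analysed here. The values of 2 named genes are not reported here.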

Additional observations from a re-analysis of the deposited data

Results flagged for a closer look

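The brighter Prkag1 probe on CHIP-/- TAB replicate 3 read -0.25, far from the other 3 arrays of its group relative to their range; 32 groups of 4 arrays were examined, and chance marks about 1 in 20. The TAB response differed between CHIP-/- and wild-type hearts, by the limma test of the difference itself, for Prkab2 (0.63), Ppargc1a (-0.88), Acacb (-0.46), Sesn1 (-0.65), Cab39 (-0.31) and Ckmt1 (0.50).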

How the results depend on the processing

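Under 30 alternatives the falls of Prkaa2, Prkab1 and the brighter Prkag1 probe after TAB in both genotypes, the fall of Stk11 in CHIP-/- hearts and the difference of Prkab2 after TAB kept their direction and their side of the threshold. With median centring 0 member probes passed in the difference of responses, and the wild-type Ckb difference turned to -0.10; the cause was not tested. Leaving out 1 array at a time, 5 to 7 member probes passed after TAB in CHIP-/- hearts, 3 to 4 in wild-type hearts, 0 to 0 between genotypes after sham surgery, 1 to 2 after TAB (2 without wild-type TAB replicate 4) and 1 to 1 in the difference of responses. Of all probes, 5799 to 6531 then passed in CHIP-/- hearts, 4180 to 4976 in wild-type hearts, 2 to 20 after sham surgery, 903 to 1585 after TAB and 365 to 872 in the difference of responses.

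Counts of all probes that moved by over 1.5 times were as follows. Between genotypes after sham surgery 5 probes passed, against 29 with median centring, 3 with Feature Extraction's log ratios, 8 with no filter on dim probes, 3 with 1 probe per gene, 8 with outlier-marked spots kept, 14 without the arrays with Y-linked transcripts and 22 without those with high Myl7. After TAB 1455 passed, against 501 with median centring. In the difference of responses 641 passed, against 197 with median centring, 390 with no intensity trend and 109 without the arrays with Y-linked transcripts, where Prkab2 still passed (0.63, adjusted p = 0.037). In wild-type hearts 4905 passed, against 3139 without the arrays with high Myl7. Fewer samples enter the fits without arrays, and the other causes were not tested. With the replicate number as a block, 6 member probes passed in CHIP-/- and 4 in wild-type hearts, 0 between genotypes after sham surgery, 1 after TAB and 1 in the difference of responses (555 of all probes), so the block changed no member count. Net signals, with more digits than the mean signals of the CHIP-/- TAB arrays, were tried after seeing the data and changed no member call. Low heart signal limits Prkag2, Prkag3 and the second probes of Prkaa1 and Prkag1.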
